A study of Mus musculus with 4 samples.

Results

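Enhancers are stretches of DNA that raise transcription of genes at a distance, and active ones are themselves transcribed by RNA polymerase in both directions into short-lived enhancer RNA. Precision nuclear run-on sequencing (PRO-seq) maps RNA as it is being made, by letting engaged polymerases extend it in isolated nuclei with labelled nucleotides, and 1 library thus reads both enhancers and genes. HDAC3 is a histone deacetylase that works in the NCOR and SMRT corepressor complexes and is known in liver for restraining lipid synthesis and for its ties to the circadian clock. The regions described here are 723 of the 2282 intergenic enhancers that the authors called from pooled PRO-seq reads of mouse liver. Each had exactly 1 transcription center, that center was not among the FANTOM5 enhancers (a catalogue of enhancers found from capped RNA), and the transcription start site (TSS) of the closest active gene lay within 50 kb. The rest of the list held 497 single-center enhancers in FANTOM5, 788 single-center enhancers not in FANTOM5 and beyond 50 kb, and 274 enhancers with several centers.

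Livers came from C57BL/6 mice on postnatal day 14. The 2 WT libraries (WT1, WT2) came from mice with +/+ alleles of Hdac3, and the 2 KO libraries (KO1, KO2) from mice with F/F or F/- alleles. Per the methods of the study, mice of both genotypes carried Alb-Cre, a Cre recombinase under the albumin promoter that acts in hepatocytes. The other liver cells of the KO mice were thus expected to keep their F (floxed) alleles, beside a null allele in F/- mice. Nuclei of several mice were pooled for each library, and p-values thus measure the spread between 2 pools per genotype. The reads on genes numbered 16628518 (KO2) to 26190040 (WT2) per library. The share of them in promoter-proximal windows was 9.38% and 10.3% in the WT libraries against 13.6% and 17.0% in the KO libraries. The hepatocyte markers Apoa1, Alb, Trf and Ttr ranked 2nd, 6th, 8th and 14th by gene body density among the 12705 active genes (Alb is serum albumin, Apoa1 the main protein of high density lipoprotein, and Trf and Ttr carriers of iron and thyroid hormone in plasma). Gene body reads of Hdac3 itself were 665 and 648 in WT and 609 and 582 in KO (log2 change -0.14 ± 0.13, SE, adjusted p = 0.413), which does not check the genotypes, since a floxed gene without some of its exons can still be transcribed. The deposited enhancer list holds positions and linked genes and no reads per library. The enhancers' own transcription was thus not compared between genotypes here, and the KO and WT values below belong to their closest genes. The study itself reports such a comparison over its enhancers, with more of them up than down in KO livers.

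By GENCODE M21, 551 of the 723 centers (76.2%) lay in no annotated gene. A further 100 lay only in a non-coding gene or pseudogene, with 70 centers in a lincRNA (long intergenic non-coding RNA). 47 centers lay in the closest protein-coding gene and 25 in another one, and 55 of all centers were exonic. RefSeq promoter windows (250 bases before to 50 after an annotated start, GRCm38.p6) held 32 of the 709 centers that could be searched, and for 14 of them the start belonged to the closest gene. Such centers lie at the start of an annotated transcript, and promoters are, like enhancers, often transcribed in both directions.

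The sequences at 6 of these centers are given because they show what kinds of start the list holds: alternative starts of protein-coding genes and starts of non-coding RNAs. They run 5' to 3' on the strand of the annotated RNA, end before its start, and come from RefSeq (GRCm38.p6). Capitals mark matches on either strand to any of 16 motifs. These were GGGCGG (SP1 and KLF factors), TGTTTAC and TGTTTGC (FOXA factors), TGANTCA (AP-1), CACGTG (E-box of the clock) and, by name, a palindromic and a variant C/EBP site, 2 HNF4A sites, the HNF1, ROR and REV-ERB, D-box, ETS, glucocorticoid receptor, STAT and NFI sites.
Slco4a1, an organic anion transporter, chr2:180456135-180456244, + strand: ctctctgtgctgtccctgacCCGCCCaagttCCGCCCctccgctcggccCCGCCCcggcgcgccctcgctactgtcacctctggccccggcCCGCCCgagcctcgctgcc
Anpep, aminopeptidase N, chr7:79848288-79848437, - strand: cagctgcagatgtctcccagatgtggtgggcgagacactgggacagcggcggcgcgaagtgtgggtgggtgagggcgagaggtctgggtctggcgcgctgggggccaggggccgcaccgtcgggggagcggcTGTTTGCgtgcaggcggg
Acer3, an alkaline ceramidase, chr7:98321209-98321333, - strand: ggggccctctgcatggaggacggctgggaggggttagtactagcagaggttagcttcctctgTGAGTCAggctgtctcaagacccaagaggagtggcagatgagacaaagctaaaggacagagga
Gpr116 (Adgrf5), an adhesion receptor of endothelium, chr17:43360227-43360376, + strand: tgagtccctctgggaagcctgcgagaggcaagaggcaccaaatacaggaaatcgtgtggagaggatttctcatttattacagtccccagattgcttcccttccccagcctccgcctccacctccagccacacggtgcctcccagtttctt
Gm30827, a non-coding start near Lphn2, chr3:148998779-148998879, + strand: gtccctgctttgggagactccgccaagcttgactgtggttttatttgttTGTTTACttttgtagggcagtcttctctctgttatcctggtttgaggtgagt
Gm39567, a non-coding start near Smtn, chr11:3573256-3573405, - strand: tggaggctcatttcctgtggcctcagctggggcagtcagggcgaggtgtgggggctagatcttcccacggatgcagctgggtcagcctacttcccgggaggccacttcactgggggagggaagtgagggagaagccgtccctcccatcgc

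The Slco4a1 stretch was 77.3% G and C with 13 CpG dinucleotides in 110 bases and 4 GGGCGG boxes, and the Anpep stretch held 14 CpG in 150 bases. The stretches near Lphn2 and Acer3 held 1 CpG each, the first with a match to TGTTTAC and the second with a match to TGANTCA. In the Gpr116 and Smtn stretches none of the marked motifs was found. A match is only these letters in the window and shows no binding.

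1 region held an annotated microRNA. The hairpin of miR-7228 lies 275 bp from the center of the enhancer at chr5:134571252-134573194, which is 9496 bp upstream of Rfc2, a subunit of the clamp loader of DNA replication. Its mature sequences in RefSeq, with the seed (bases 2 to 8) in capitals, are given because the hairpin lies within the region.
mmu-miR-7228-5p, chr5:134572076-134572094, + strand: uGGCGACCugaacagaugu
mmu-miR-7228-3p, chr5:134572098-134572114, + strand: aGUGUUCGgucuccagu

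The 723 enhancers, given at mm10 coordinates as deposited, had a median length of 2195 bp, with quartiles at 1631 and 3211 bp. The shortest, at chr11:97647897-97648250 (353 bp), lay 15162 bp from Mllt6, and the longest, at chr8:68015806-68062951 (47145 bp), lay 41232 bp from Psd3. 38 of them (5.26%) were longer than 10 kb, against 3.43% of the single-center enhancers beyond 50 kb and 40.5% of those with several centers. The center lay in the middle 50% of the region for 558 of the 723.

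The median distance to the closest TSS was 19188 bp. It ran from 2045 bp, for the region at chr10:53381896-53383890 near Gm9766, to 49890 bp, for the region at chr9:63030769-63034613 near Pias1. The next 2 enhancers past the bound lay 50246 bp from Ms4a7 and 50260 bp from Strbp, next to those just inside it near Pias1 (49890 bp) and Wdr5 (49882 bp). For 545 of the 709 enhancers whose gene could be placed in GENCODE, the deposited distance matched that from the nearest edge of the region to the TSS within 50 bp. Of these 709, 642 (90.6%) lay upstream of the gene and 65 downstream past its end. The upstream distances started at 2045 bp and the downstream ones at 25391 bp. Before enhancers were called, the authors left out intergenic transcripts next to RefSeq genes, with a wider margin past the gene end than before the start.

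**Figure D1:**
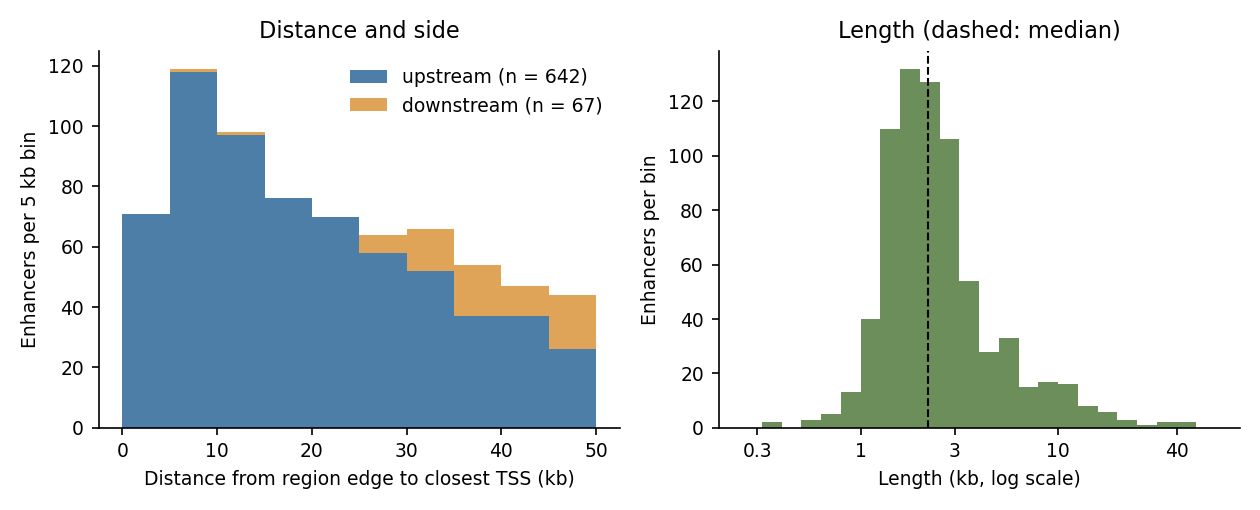
Left, number of enhancers in 5 kb bins of the distance from the region edge to the closest TSS, with 642 upstream and 67 downstream of it (65 of these past the gene end). Right, number of enhancers by length on a log scale, with the median of 2195 bp as a dashed line. Downstream enhancers past the gene end appear from 25391 bp on.

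The 723 enhancers had 620 different closest genes, all of them active. 536 genes had 1 of these enhancers, 69 had 2, 11 had 3 and 4 had 4, and 205 of the 620 were also closest to an enhancer of another class. The median gene body density of the 620 was 56.4 normalized reads per kb, against 37.1 over all active genes. For 504 enhancers the closest gene was the sole active gene with its TSS within 50 kb, and for 219 there were 2 or more. 650 enhancers had a link to a gene in 4DGenome, a collection of measured chromatin contacts, and for 400 (55.3%) the closest gene was among the linked ones. The share was 52.3% for enhancers in FANTOM5, 37.8% beyond 50 kb and 64.2% with several centers, and no test of these differences was made. Among the cell types counted, 615 enhancers were linked in Th1 lymphocytes and 249 in ESC (embryonic stem cells), and links in liver were not counted.

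Gene body reads stand for polymerases that have left the promoter and are elongating. To ask how the closest genes differed without Hdac3, log2(normalized reads + 1) was fitted with limma over the 12705 active genes, and a gene was called at an adjusted p under 0.05 with an absolute log2 change over 0.6. Changes below are given as log2 change ± SE, on the scale of log2(normalized reads + 1), with the Benjamini-Hochberg adjusted p of limma. In the gene body, 79 of the 620 closest genes (12.7%) were called up and 96 (15.5%) down, beside 10.4% and 11.4% of all active genes. The median log2 change was -0.07, against -0.09 over all active genes. In the promoter-proximal window, where polymerase pauses after initiation, 173 (27.9%) were called up and 26 (4.19%) down, beside 25.8% and 2.2% of all active genes. Promoter-proximal values as deposited rose over the whole table, with a median log2 change of 0.56 for all active genes and 0.51 for the closest genes. With median-of-ratios scaling within this region, 39 closest genes were called up and 87 down, so the split of these calls depends on the scaling. The pausing index, the ratio of the density near the promoter to that in the gene body, was called up for 46 genes (7.42%) and down for 0, beside 12.4% and 0.519% of all active genes. The 0 is from limma, with 4 of the 620 lower at an unadjusted p under 0.05, and the index was not tested with a count model. The 46 calls became 0 with scaling within each region, 0 without WT1 or without WT2, 7 without KO2, 196 without KO1 and 4 with the replicate block.

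**Figure D2:**
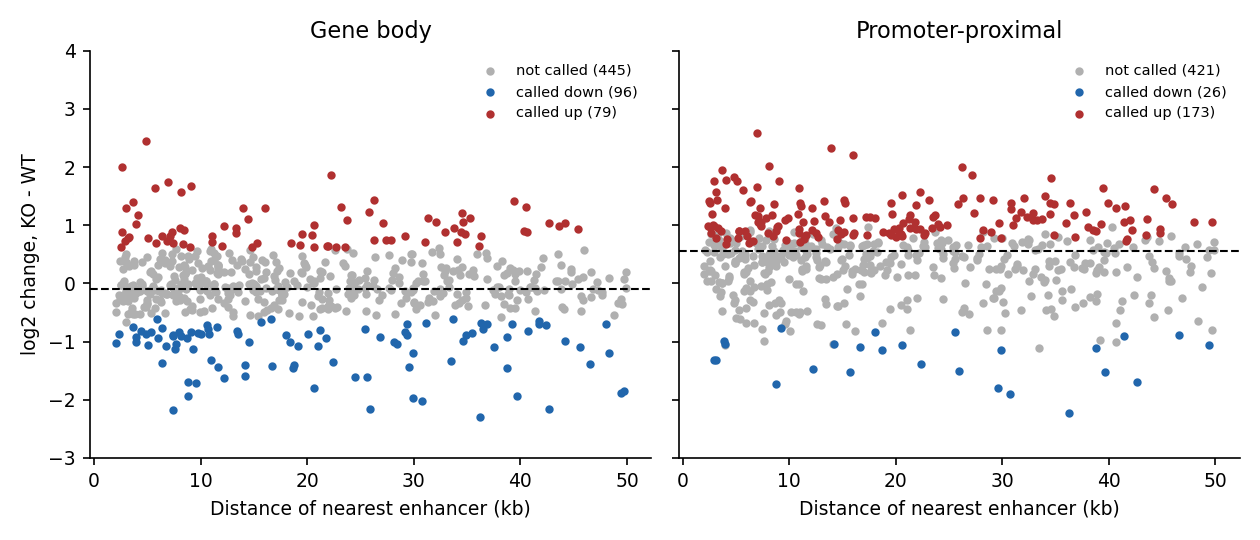
Log2 change (KO minus WT) of each of the 620 closest genes against the distance of its nearest enhancer in kb, for gene bodies (left) and promoter-proximal windows (right). Red and blue points are genes called up (79 and 173) and down (96 and 26), grey points are not called, and the dashed line is the median of all active genes (-0.09 and 0.56). Called genes stand at all distances up to 50 kb.

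Of the closest genes whose own start sequences are given above, Gpr116 and Anpep were called. Smtn, the closest gene of a non-coding start shown, was also called up and is described below. Gene body reads of Gpr116 were 5277 and 5294 in WT and 9484 and 8372 in KO (log2 change 0.75 ± 0.11, adjusted p = 5.86e-06), and those of Anpep were 734 and 656 in WT and 314 and 457 in KO (log2 change -0.87 ± 0.16, adjusted p = 0.000104). Slco4a1, at 139 and 114 in WT and 118 and 137 in KO, showed no difference beyond the spread (adjusted p = 0.97). Across the 14 genes whose own annotated start held the center, 2 were called up and 2 down in the gene body, beside 10.4% and 11.4% of all active genes.

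The share of called genes showed no steady course with distance. Gene body counts by distance stand beside 10.4% up and 11.4% down of all active genes. Of the 73 genes with an enhancer up to 5 kb away, 11 were called up and 7 down in the gene body. Of the 118 genes at 5 to 10 kb, 16 were called up and 21 down, and of the 64 genes at 40 to 50 kb, 7 and 12. The 84 genes with 2 or more of these enhancers had 12 up and 16 down, close to the shares of the 536 genes with 1 (67 and 80). The 359 genes that 4DGenome links to their enhancer had 40 up and 50 down (11.1% and 13.9%), and the 261 others 39 up and 46 down (14.9% and 17.6%). Where the center lay inside the closest gene by GENCODE (45 genes), 4 genes rose and 1 fell near the promoter (8.89% and 2.22%, beside 25.8% and 2.2% of all active genes), with a median log2 change of 0.16 against 0.56. Their promoter-proximal windows held a median of 32.5 normalized reads, against 152 for the 620 genes, and in the gene body 4 of them were called up and 7 down.

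The 8 largest falls in gene bodies were those of 3930402G23Rik, Pllp, Foxq1, Lpin1, Myb, Lepr, Egfr and Hsd17b6, in that order, described here by role. Lpin1, a phosphatidate phosphatase of triglyceride synthesis, had 18609.7 and 13655 in WT and 4028 and 3193 in KO normalized reads (log2 change -2.15 ± 0.13, adjusted p = 3.78e-11), and its enhancer at chr12:16632431-16634786 lay 42661 bp upstream. Egfr, the epidermal growth factor receptor, had 27249 and 24695 in WT and 7971 and 5730.1 in KO (log2 change -1.94 ± 0.13, adjusted p = 1.22e-10), with its enhancer at chr11:16741552-16743411. Lepr, the leptin receptor, had 8948 and 6640 in WT and 2391 and 1622 in KO (log2 change -1.97 ± 0.15, adjusted p = 4.49e-10), with its enhancer at chr4:101681889-101687482. In each of these genes both KO libraries lay below both WT libraries, which the rule for choosing them asks. Hsd17b6, a hydroxysteroid dehydrogenase, had 2780.0 and 2547 in WT and 852 and 572 in KO (log2 change -1.93 ± 0.14, adjusted p = 3.45e-10), and its enhancer at chr10:127965471-127967839 was the one of these 8 that lay downstream of its gene. Foxq1, a forkhead transcription factor, had 819 and 959 in WT and 194 and 200.4 in KO (log2 change -2.16 ± 0.15, adjusted p = 1.02e-10), with its enhancer at chr13:31529988-31532270. Pllp, the membrane protein plasmolipin, had 459 and 465 in WT and 91.2 and 112 in KO (log2 change -2.18 ± 0.17, adjusted p = 9.57e-10), and its enhancer at chr8:94703655-94704238 was 583 bp long. The pair of libraries within each genotype differed far less than the genotypes did. Myb, a transcription factor of blood progenitors, had 577 and 631 in WT and 147 and 147 in KO (log2 change -2.03 ± 0.15, adjusted p = 5.34e-10), with its enhancer at chr10:21191740-21193364. 3930402G23Rik, a RIKEN transcript, had 190.5 and 320 in WT and 54.1 and 45.5 in KO (log2 change -2.29 ± 0.24, adjusted p = 4.98e-08); its enhancer at chr8:10964673-10966956 lies between it and Irs2, an insulin receptor substrate, which also fell (7523 and 8070 in WT, 4188 and 3475 in KO; log2 change -1.03, adjusted p = 1.31e-07).

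The 8 largest rises were those of Cyp2b13, Zfp503, Ngfr, S1pr3, Nfatc4, Pth1r, Abcc9 and Col14a1, in that order. Cyp2b13, a P450 of drug and steroid metabolism, had 577 and 562 in WT and 3084 and 3175 in KO (log2 change 2.46 ± 0.11, adjusted p = 6.1e-13), with its enhancer at chr7:26054226-26056627, 4868 bp upstream. Mouse Cyp2b genes are near-identical in parts. Per the methods of the study, reads of low mapping quality were removed, so reads that fit several copies may be missing from the counts. Zfp503, a zinc finger repressor with 2 of these enhancers, had 505 and 604 in WT and 1673 and 2926 in KO (log2 change 2.0 ± 0.17, adjusted p = 2.94e-09), and the nearer enhancer at chr14:21992187-22000732 reaches over 8545 bp from 2586 bp upstream, with its center in the non-coding gene C130012C08Rik. KO2 lay well above KO1 for this gene, and both lay above the WT libraries. Ngfr, the low-affinity nerve growth factor receptor of activated stellate cells, had 166 and 183 in WT and 657 and 624 in KO (log2 change 1.87 ± 0.15, adjusted p = 1.18e-09), with its enhancer at chr11:95609956-95611348. S1pr3, a receptor for sphingosine-1-phosphate, had 124 and 170 in WT and 490.1 and 490.4 in KO (log2 change 1.75 ± 0.17, adjusted p = 2.47e-08), with its enhancer at chr13:51400575-51401675. Pth1r, the parathyroid hormone receptor, had 781 and 981 in WT and 2779 and 2703 in KO (log2 change 1.65 ± 0.12, adjusted p = 3.45e-10), and its enhancer at chr9:110752840-110756049 has its center in Myl3. In none of these genes did the genotypes overlap, which the rule for choosing them asks. Abcc9, a subunit of a potassium channel of vascular muscle and pericytes, had 1213 and 1375 in WT and 4152 and 3551 in KO (log2 change 1.57 ± 0.12, adjusted p = 3.38e-10), with 2 enhancers, at chr6:142710384-142713602 and chr6:142714143-142716372. Col14a1, a fibril-associated collagen, had 1403 and 1740 in WT and 4342 and 4139 in KO (log2 change 1.44 ± 0.12, adjusted p = 1.27e-09), with its enhancer at chr15:55276106-55281445. Nfatc4, a calcium-dependent transcription factor, had few reads (20.7 and 53 in WT and 134 and 88.1 in KO; log2 change 1.68 ± 0.33, adjusted p = 0.000261), and the call was lost without KO1. Fscn1, the actin bundler fascin that the study describes, had 396 and 545 in WT and 1171 and 1154 in KO (log2 change 1.32 ± 0.14, adjusted p = 9.79e-08), with its enhancer of 906 bp at chr5:142936292-142937198, and the other active genes there, Actb and Fbxl18, had log2 changes of 0.45 and -0.25 and were not called.

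**Figure D3:**
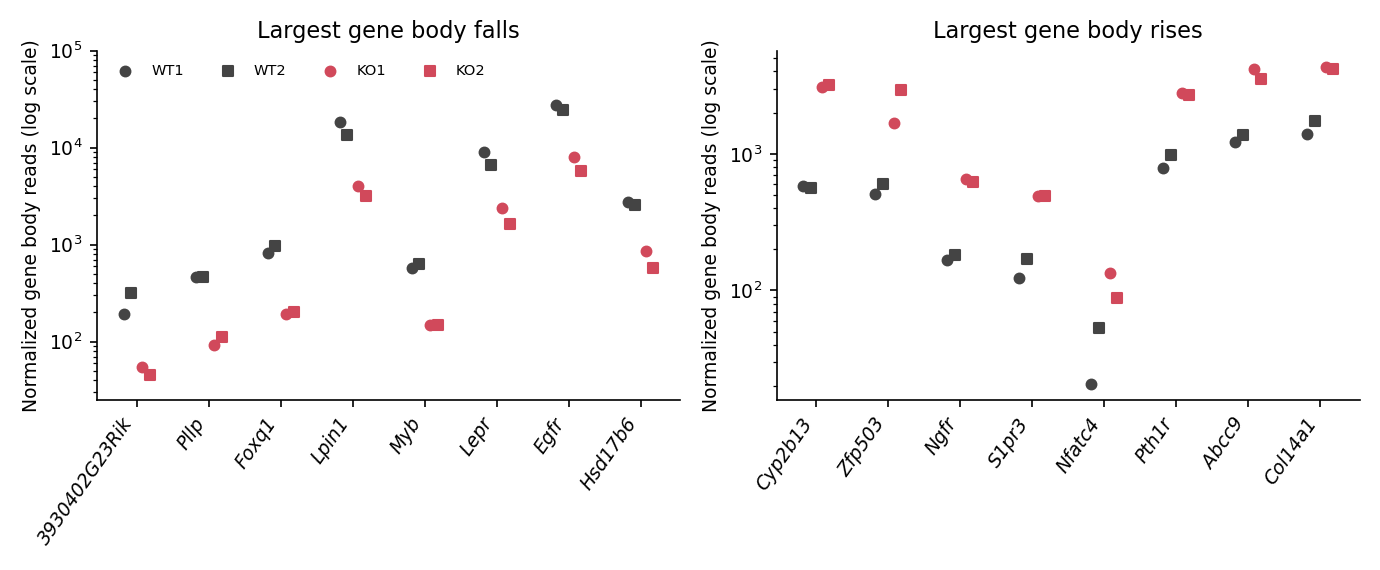
Normalized gene body reads (log scale) of the 8 closest genes with the largest falls (left) and the 8 with the largest rises (right), for WT1 and WT2 (grey) and KO1 and KO2 (red). The KO points lie below the WT points in every gene at left and above them at right, which the rule for choosing these genes asks.

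Annotated promoters of 6 of these 16 genes, 3 that fell and 3 that rose, are given as examples. Each is the 150 bases before a RefSeq start (GRCm38.p6), 5' to 3' on the strand of the gene, with matches to the motifs above in capitals. A gene can have several starts, and the start shown for Lpin1 is not the one that its enhancer's distance above refers to.
Lpin1, fell, chr12:16610967-16611116, - strand: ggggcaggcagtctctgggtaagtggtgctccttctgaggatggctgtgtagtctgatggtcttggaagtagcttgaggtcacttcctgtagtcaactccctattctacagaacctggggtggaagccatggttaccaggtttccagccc
Hsd17b6, fell, chr10:128007612-128007761, - strand: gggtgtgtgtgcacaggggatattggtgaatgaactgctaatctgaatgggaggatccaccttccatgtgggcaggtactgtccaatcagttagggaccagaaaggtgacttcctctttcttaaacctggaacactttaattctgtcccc
Egfr, fell, chr11:16752053-16752202, + strand: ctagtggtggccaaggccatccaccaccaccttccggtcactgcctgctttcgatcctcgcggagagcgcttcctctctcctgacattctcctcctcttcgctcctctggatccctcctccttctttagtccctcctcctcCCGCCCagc
Cyp2b13, rose, chr7:26061345-26061494, + strand: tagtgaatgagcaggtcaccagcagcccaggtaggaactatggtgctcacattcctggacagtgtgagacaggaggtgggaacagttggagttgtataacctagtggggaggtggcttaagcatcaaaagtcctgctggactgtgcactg
Ngfr, rose, chr11:95587699-95587848, - strand: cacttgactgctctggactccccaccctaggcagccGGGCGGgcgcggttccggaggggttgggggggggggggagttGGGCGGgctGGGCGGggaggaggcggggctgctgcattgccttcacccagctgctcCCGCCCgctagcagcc
Abcc9, rose, chr6:142702275-142702424, - strand: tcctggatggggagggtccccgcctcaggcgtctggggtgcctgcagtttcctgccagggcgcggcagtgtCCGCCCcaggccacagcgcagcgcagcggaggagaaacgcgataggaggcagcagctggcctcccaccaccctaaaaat

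The Lpin1, Hsd17b6 and Cyp2b13 stretches held no CpG, that of Egfr held 7 and those of Ngfr and Abcc9 10 each. Both directions spanned a wide range: among the falling genes the Myb stretch, not shown, held 26 CpG and that of Pllp 11 with 3 GGGCGG boxes, and among the rising genes that of Zfp503 held 11. Windows were found for 498 of the 620 closest genes (644 windows of 300 bases, as a gene can have several starts). GGGCGG on either strand stood in 43.6% of the 110 windows of genes called down in the gene body, in 56% of the 84 windows of genes called up and in 64.7% of the 450 windows of genes not called. It stood in 60.9% of the windows of active genes and in 35.7% of all 32851 windows. The median number of CpG per window was 12.5 for genes called down, 16 for those called up and 20 over active genes. TGTTTGC stood in 7.27%, 3.57% and 4% of the windows of genes called down, called up and active. These shares were not tested, and they concern promoters, since the sequence at most of the enhancer centers was not analysed here.

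Near the promoter, the strongest changes pointed the same way as in the gene body. Since the deposited scaling raises this region as a whole, each change is also given relative to the median of all active genes. Promoter-proximal reads of S1pr3 were 462 and 406 in WT and 2625 and 2569 in KO (log2 change 2.58 ± 0.28, adjusted p = 2.58e-16; 2.02 above the median), and Des, the muscle filament desmin that marks stellate cells, had 26.4 and 38 in WT and 141 and 188 in KO (log2 change 2.33 ± 0.36, adjusted p = 4.09e-08; 1.77 above). Col1a2, a chain of collagen type I, had 96.4 and 110 in WT and 490.1 and 466 in KO (log2 change 2.20 ± 0.32, adjusted p = 2.34e-09; 1.64 above). The KO values of these 3 genes were all above the WT values, as the rule for choosing them asks. Ifi204, an interferon-induced DNA sensor of myeloid cells, had 95.2 and 46 in WT and 246 and 295 in KO (log2 change 2.01 ± 0.33, adjusted p = 4.34e-07; 1.45 above), and Bmp10, a ligand of endothelial receptors, had 37.9 and 40 in WT and 125 and 187 in KO (log2 change 1.95 ± 0.36, adjusted p = 5.46e-06; 1.39 above). The falls were led by Lpin1 at 117 and 79 in WT and 27.6 and 30.4 in KO (log2 change -1.70 ± 0.38, adjusted p = 0.00019; -2.26 relative to the median). Insig2, which holds the sterol sensor complex in the endoplasmic reticulum, had 157 and 76 in WT and 33.9 and 41 in KO (log2 change -1.53 ± 0.37, adjusted p = 0.000663; -2.09 relative). Foxq1, Igfbp2 (a binding protein for insulin-like growth factors) and Lepr followed, with log2 changes of -1.51, -1.47 and -1.14, and were also called down in the gene body. Tfpi2, a secreted protease inhibitor, moved in opposite directions at the deposited scaling: its promoter-proximal reads were 39 and 47 in WT and 95.5 and 103 in KO (log2 change 1.19 ± 0.37, adjusted p = 0.00886; 0.63 above the median of active genes), its gene body reads 216 and 209 in WT and 125 and 108 in KO (log2 change -0.86 ± 0.19, adjusted p = 0.000681), and its pausing index had the largest rise among the 620 (log2 change 2.06). It was picked after its values were seen.

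Hepatocyte functions were followed with lists of genes, each counted over the members that were closest to these enhancers. The other active genes of a list, closest to none of these enhancers, are given beside them for most lists. Of 15 liver transcription factors and coactivators, 8 fell and 0 rose in the gene body (median log2 change -0.70), beside 11.4% and 10.4% of all active genes. Of the 24 other active genes of the list, 14 fell and 0 rose (median -0.99). Klf15, a Krüppel-like factor of amino acid metabolism, had 7414 and 8237 in WT and 2375 and 2739 in KO (log2 change -1.61 ± 0.11, adjusted p = 1.41e-10), and Klf9, a glucocorticoid-induced factor with 2 of these enhancers, had 5613 and 6269 in WT and 3299 and 3220.3 in KO (log2 change -0.86 ± 0.11, adjusted p = 8.04e-07). These falls exceeded the spread of the WT pair. Of 14 genes of amino acid and nitrogen metabolism, 10 fell and 0 rose (median -0.94), and of the 20 others 17 fell and 1 rose (median -1.30). Cps1, the first enzyme of the urea cycle, had 139758 and 128681 in WT and 53978 and 47902 in KO (log2 change -1.40 ± 0.15, adjusted p = 6.16e-08). Tat, tyrosine aminotransferase, had 21219 and 26524 in WT and 8955 and 8771 in KO (log2 change -1.42 ± 0.12, adjusted p = 2.58e-09). Gldc, the glycine decarboxylase, had 2 enhancers and the largest fall of the list (7777 and 7652 in WT and 2802 and 2797 in KO; log2 change -1.46 ± 0.11, adjusted p = 2.33e-10). Slc38a2, an amino acid transporter, and Agxt, an aminotransferase of glyoxylate, stood near the threshold (log2 changes -0.65 and -0.61) and lost their call with the scaling taken from gene bodies and without WT2 or KO2.

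Of 27 genes of lipid metabolism, 10 fell and 2 rose (median -0.32), beside 11.4% down and 10.4% up of all active genes. Of the 20 other active genes of the list, 9 fell and 5 rose (median -0.30). Slc27a2, a fatty acid transporter, had 24174 and 13810 in WT and 10488 and 9978 in KO (log2 change -0.84 ± 0.16, adjusted p = 0.000227), and its call was lost without WT1, KO1 or KO2. It was highest in WT1. Apob, the protein of very low density lipoprotein, had 29317 and 29154 in WT and 20286 and 19929 in KO (log2 change -0.54) and Trib1, a pseudokinase that restrains lipid synthesis, had 3171 and 3561 in WT and 3318 and 3569.5 in KO (log2 change 0.03), and neither was called. The 2 closest genes of the list that rose were Plin2, a lipid droplet protein (log2 change 0.70), and Cd36, a fatty acid receptor that endothelial and myeloid cells also make, at 1247 and 1093 in WT and 2368 and 1957 in KO (log2 change 0.88 ± 0.12, adjusted p = 3.15e-06).

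The gene body counts that follow stand beside 11.4% down and 10.4% up of all active genes. Of 13 secreted plasma proteins, 9 fell and 0 rose (median -0.89), and of the 20 other active genes of the list 11 fell and 1 rose (median -1.05). Alb, serum albumin, had 67673 and 75584 in WT and 38678 and 38574 in KO (log2 change -0.89 ± 0.13, adjusted p = 1e-05), with its enhancer at chr5:90439901-90442838, 18051 bp upstream. Igfbp2 had 3 enhancers and 21075 and 16346 in WT and 7365 and 4877 in KO (log2 change -1.63 ± 0.15, adjusted p = 8.21e-09). Serpina1a, an alpha-1-antitrypsin, had 4372 and 4877 in WT and 1742 and 1639.8 in KO (log2 change -1.45 ± 0.11, adjusted p = 4.56e-10), and its near-identical copies make its counts uncertain. Of the 7 hepatocyte markers, 4 were closest to these enhancers, and Alb, Cps1 and Serpina1a fell while Apob was not called. Sepp1, the selenium carrier of plasma, was not called at 19331 and 14795 in WT and 16144 and 16191 in KO (log2 change -0.06), nor was Fgg, a fibrinogen chain (log2 change -0.52). Of 22 genes of detoxification, redox and transport, 9 fell and 2 rose (median -0.39), the rises being those of Cyp2b13 and Abcc9. The 15 other active genes of the list went the other way, with 1 down and 5 up (median 0.28). Abcc9 is listed as a membrane transporter, though it is the channel subunit of vascular muscle and pericytes described above. Upp2, a uridine phosphorylase, had 26828 and 19497 in WT and 12744 and 12694 in KO (log2 change -0.85 ± 0.13, adjusted p = 1.52e-05), while Cyp2e1, Alas1 and Cyp3a25 were not called (log2 changes -0.57, 0.25 and 0.24). Of 9 genes of glucose and glycogen metabolism 2 fell and 0 rose, Ppp1r3c and Gne (a kinase of sialic acid synthesis, log2 change -1.08). Of the 14 others of this list, 10 fell and 1 rose (median -0.96). Ppp1r3c, a glycogen-targeting phosphatase subunit, had 784 and 780 in WT and 352 and 326 in KO (log2 change -1.20 ± 0.14, adjusted p = 1.83e-07), while H6pd, Aldoa and Eno1 were not called. Of 4 clock and clock output genes 2 fell, Klf9 and Ccrn4l (nocturnin), the latter at 3302 and 6684 in WT and 1256 and 1438 in KO (log2 change -1.80 ± 0.19, adjusted p = 5.53e-08). The 15 others of this list had 7 down and 1 up (median -0.56). WT2 lay far above WT1 for Ccrn4l, and Cry1 and Wee1 were not called (log2 changes -0.53 and 0.15).

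Endothelial and stellate genes moved the other way. Of 15 endothelial genes closest to these enhancers, 12 rose and 0 fell in the gene body (median 0.79), and of 13 stellate cell and mesenchymal genes 12 rose and 0 fell (median 1.29). Among the 7 other active genes of each list, 4 endothelial and 7 stellate genes rose and 0 fell (medians 0.65 and 1.23). Stab2, the scavenger receptor of sinusoidal endothelium, had 2 enhancers, at chr10:87011199-87013632 and chr10:87044943-87046142, and 35275 and 38412 in WT and 67559 and 59965 in KO (log2 change 0.79 ± 0.13, adjusted p = 4.33e-05). Kdr, a receptor for vascular endothelial growth factor, had 6797 and 6853 in WT and 13168 and 11489 in KO (log2 change 0.85 ± 0.11, adjusted p = 1.49e-06), and Flt1, another such receptor, had 5596 and 6452 in WT and 12915 and 11969 in KO (log2 change 1.05 ± 0.11, adjusted p = 8.53e-08). The KO libraries were about alike and lay above both WT libraries in each. Egfl7, a secreted endothelial factor, had 6042 and 7722 in WT and 13271 and 13032 in KO (log2 change 0.94 ± 0.12, adjusted p = 9.62e-07), while Klf2, a flow-induced factor, was not called (log2 change 0.45). Among the stellate and mesenchymal genes, Hlx, a homeobox factor of liver mesenchyme, had 847 and 873 in WT and 1391 and 1404 in KO (log2 change 0.70 ± 0.12, adjusted p = 3.72e-05), Smtn, smoothelin, 1784 and 2425 in WT and 3824 and 3822 in KO (log2 change 0.88 ± 0.13, adjusted p = 4.78e-06), and Prelp, a matrix proteoglycan, 357 and 432 in WT and 1051 and 1046 in KO (log2 change 1.42 ± 0.13, adjusted p = 1.46e-08). Of 24 Kupffer and other white blood cell genes 3 rose and 1 fell (median 0.40), beside 10.4% up and 11.4% down of all active genes. Il1a, interleukin 1 alpha, had 2229 and 2400 in WT and 4730.1 and 3647 in KO (log2 change 0.84 ± 0.12, adjusted p = 5.01e-06), and Cd180, a Toll-like receptor homolog, 137 and 125 in WT and 329.9 and 276 in KO (log2 change 1.20 ± 0.18, adjusted p = 7.5e-06), while Sirpa, Csf2ra and Cd5l were not called (log2 changes 0.56, 0.29 and 0.57). The third that rose was Capg, an actin-capping protein (log2 change 0.78), and the gene that fell was Myb. With scaling within the region 6 genes of this list rose. Both erythroid genes fell, Slc4a1 (band 3) at 372 and 477 in WT and 168 and 150.3 in KO (log2 change -1.40 ± 0.17, adjusted p = 5.3e-07) and Tspan33 (a tetraspanin) at 392 and 421 in WT and 133 and 137 in KO (log2 change -1.59 ± 0.17, adjusted p = 5.57e-08). No cholangiocyte gene of the list was closest to these enhancers.

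**Figure D4:**
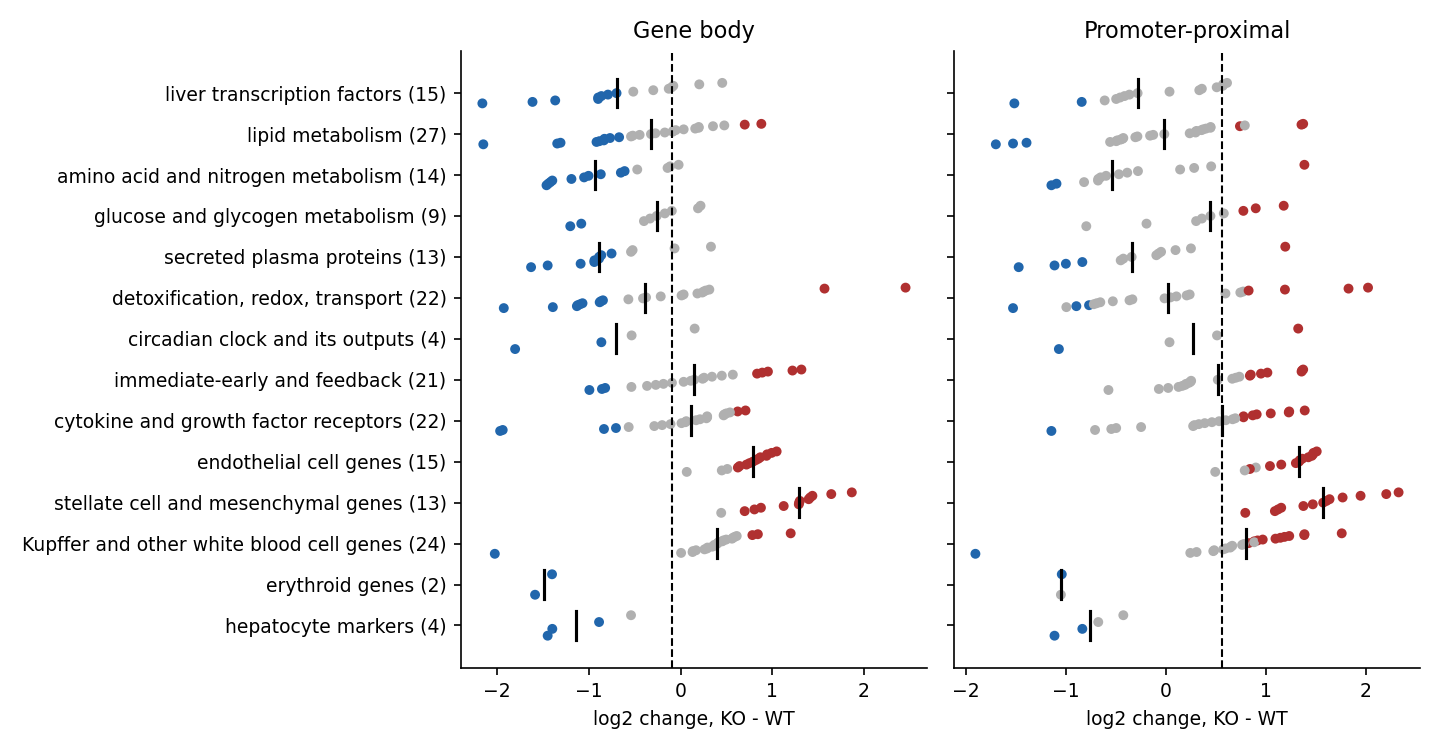
Log2 change (KO minus WT) of the closest genes in each list, for gene bodies (left) and promoter-proximal windows (right); each point is a gene (red, called up; blue, called down; grey, not called), the bar is the median of the list and the dashed line the median of all active genes (-0.09 and 0.56). The numbers in brackets count the closest genes per list. Endothelial and stellate genes lie to the right and plasma protein, amino acid and hepatocyte genes to the left in gene bodies.

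The levels of the whole marker lists, which hold these closest genes and so are not independent of them, are given beside the counts. The summed gene body density of 22 endothelial genes was 2829 to 3283 normalized reads per kb in WT and 4730.0 to 5192 in KO, that of 20 stellate and mesenchymal genes 578 to 665 and 1288 to 1330.1, and that of 29 Kupffer and white blood cell genes 2174 to 2340.2 and 2708 to 3148. For the 7 hepatocyte markers it was 22913 to 26637 in WT and 11849 to 11862 in KO, for 10 erythroid genes 153 to 170.0 and 59.0 to 65.1, and for 8 cholangiocyte genes 191 to 296 and 78.9 to 91.7. Most of the hepatocyte sum came from the 3 markers not closest to these enhancers (15764 to 19004 in WT and 7995 to 8092 in KO). Of these 3, 1 was called down and 2 were not called (median log2 change -0.30), so the sum does not show that all markers fell. None of the markers found in the table was at 0 in all 4 libraries. In bulk liver, fewer cells of a type and less transcription per cell cannot be told apart, and the part of either in these results was not tested.

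Genes of signalling were mixed, and their counts stand beside 10.4% up and 11.4% down of all active genes in the gene body. Of 21 immediate-early and feedback regulators, 5 rose and 3 fell in the gene body (median 0.15). Atf3, a stress-induced transcription factor, had 158 and 191 in WT and 404 and 469 in KO (log2 change 1.32 ± 0.17, adjusted p = 8.43e-07), Id3, an inhibitor of helix-loop-helix factors with 2 enhancers, 246 and 300 in WT and 486 and 524 in KO (log2 change 0.89 ± 0.15, adjusted p = 4.95e-05), and Tob1, an antiproliferative protein, 1257 and 2451 in WT and 839 and 925 in KO (log2 change -0.99 ± 0.18, adjusted p = 0.000129). For Tob1 WT1 lay closer to the KO libraries than to WT2, and its call was lost without WT2 or KO1. Of 22 cytokine and growth factor receptors and their signalling genes, 2 rose and 4 fell (median 0.12). Notch1, a receptor with 2 of these enhancers, had 5785 and 6572 in WT and 9351 and 9655 in KO (log2 change 0.62 ± 0.11, adjusted p = 6.96e-05), and Nrarp, its feedback inhibitor, was called at few reads (42.5 and 52 in WT and 85.9 and 69.8 in KO; log2 change 0.71 ± 0.26, adjusted p = 0.0335). Both calls hung on single libraries: that of Notch1 was lost without WT1, and that of Nrarp without WT1, KO1 or KO2. Irf2bp2, Ifngr1 and Ifnar2 were not called (log2 changes -0.57, -0.11 and 0.47).

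In the promoter-proximal window 25.8% of all active genes were called up and 2.2% down, and 4.99% and 7.41% with scaling within the region, which lowers all genes by about the same amount. The lists gave 12 up and 0 down of 15 endothelial genes (6 and 0 with scaling within the region), 13 and 0 of 13 stellate genes (7 and 0), and 11 and 1 of 24 white blood cell genes (2 and 1). For 14 amino acid genes the counts were 1 up and 2 down (0 and 10 with scaling within the region), for 13 plasma proteins 1 and 4 (0 and 7), for 27 lipid genes 3 and 3 (1 and 10), and for 9 glucose genes 3 and 0 (0 and 2). For 22 detoxification genes they were 4 and 3 (1 and 10), for 22 receptor and signalling genes 8 and 1 (1 and 3), for 21 immediate-early genes 7 and 0 (3 and 2), and for 15 liver transcription factors 0 and 2 (0 and 6). Leaving out 1 library gave 3 to 12 endothelial and 4 to 12 stellate genes called up. Promoter-proximal windows hold few reads, and 38, 25 and 19 of the 620 genes were called up without WT1, WT2 and KO2, in place of 173.

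Groups of these enhancers crowd around a few genes. Upstream of Cebpg, a C/EBP-family transcription factor, 4 of them lay in a row at chr7:35065198-35075600, chr7:35076198-35077386, chr7:35079698-35082471 and chr7:35085250-35087133, and a further 3 were closest to the neighbouring Cebpa, the main C/EBP factor of hepatocytes, at chr7:35106652-35108628, chr7:35144684-35148013 and chr7:35148819-35151333. All 4 near Cebpg also had Cebpa within 50 kb. Gene body reads of Cebpa were 1184 and 1460 in WT and 721 and 799 in KO (log2 change -0.79 ± 0.13, adjusted p = 2.62e-05), while Cebpg was not called at 1528 and 1425 in WT and 1506 and 1265 in KO (log2 change -0.10, adjusted p = 0.557). The other genes with 4 were Zfp217, a zinc finger protein of corepressor complexes, at 3579.7 and 3443 in WT and 4674 and 4423 in KO (log2 change 0.37 ± 0.11, adjusted p = 0.00701), Fam102a, at 2633 and 3143 in WT and 3757 and 3562 in KO (log2 change 0.35 ± 0.11, adjusted p = 0.0173), and Sertad2, a transcriptional coregulator, at 1734 and 1648 in WT and 1380.1 and 1424 in KO (log2 change -0.27 ± 0.11, adjusted p = 0.0617). None of these 4 genes passed both thresholds. The enhancers of Zfp217 lie from chr2:170147143-170148407 to chr2:170192446-170193798, those of Fam102a from chr2:32526996-32528717 to chr2:32506069-32508449 and those of Sertad2 from chr11:20531277-20533306 to chr11:20506180-20509238, each pair giving the nearest and the farthest from the TSS. Plekhg1, a guanine nucleotide exchange factor with 3 enhancers between 20610 and 42592 bp upstream at chr10:3716602-3719767, chr10:3701567-3703335 and chr10:3696230-3697785, rose (10560 and 10943 in WT and 22927 and 20102 in KO; log2 change 1.0 ± 0.12, adjusted p = 2.51e-07).

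Where other active genes had their TSS within 50 kb of the same enhancer, their gene bodies were compared with those of the closest gene. Beside 25 closest genes called down there were 33 such pairs, in which 8 of the other genes (24.2%) were called down and 4 up. Among these 8, Slc39a2 and C1ra stood near the threshold (log2 changes -0.63 and -0.64). Without KO2 their log2 changes were -0.46 and -0.44. Beside 21 closest genes called up there were 35 pairs, with 6 others (17.1%) called up and 3 down. Beside the 155 closest genes not called, 23 of 231 others (9.96%) were called up and 24 (10.4%) down, which is near the 10.4% and 11.4% of all active genes. These shares were not tested. Afp (alpha-fetoprotein) beside Alb had 948 and 1390 in WT and 722 and 115 in KO (log2 change -1.99 ± 0.42), and the gap from KO1 to WT1 was smaller than that between the WT libraries. Without KO2 its log2 change was -0.67 and its call was lost (adjusted p = 0.0563). The pairs that fell together also include Serpina1a with Serpina1d, and Cyp2d10 with Cyp2d11, which stand side by side in gene families, with copies alike in sequence for Serpina1a and Cyp2d10. Nfatc4 rose beside Adcy4 (log2 change 0.82) and Nynrin (1.20), while Ltb4r1 at the same enhancer fell (-1.25). Lepr fell and Leprot, whose start lies near that of Lepr, did not (log2 change 0.09, adjusted p = 0.649). The pairs named here, other than those with named closest genes, were picked after their values were seen.

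**Figure D5:**
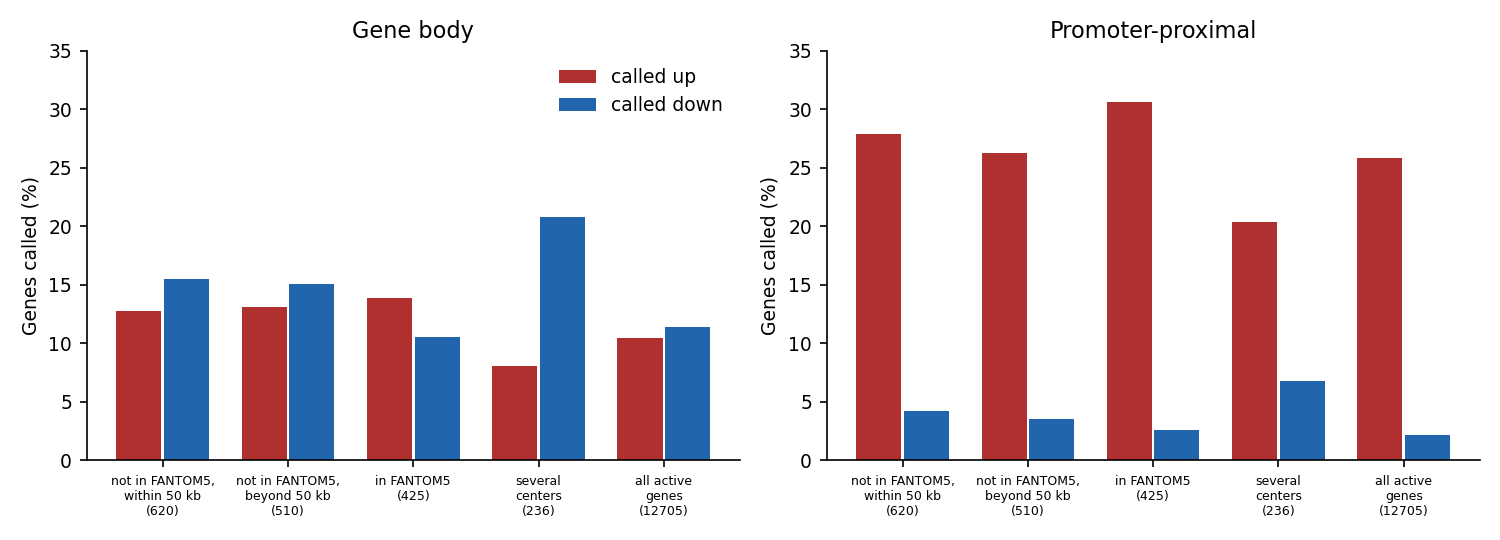
Percentage of closest genes called up (red) and down (blue) in gene bodies (left) and promoter-proximal windows (right), for the single-center enhancers not in FANTOM5 within and beyond 50 kb, those in FANTOM5, those with several centers, and all active genes. The number of genes is in brackets, and a gene can be closest to enhancers of more than 1 class. For enhancers within 50 kb the gene body shares are 12.7% up and 15.5% down.

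Set beside the other enhancers of the list, the shares of called closest genes were nearest to those of single-center enhancers not in FANTOM5 and beyond 50 kb, of which 67 of 510 (13.1%) were called up and 77 (15.1%) down in the gene body. For enhancers in FANTOM5 the counts were 59 and 45 of 425 (13.9% and 10.6%), and for enhancers with several centers 19 and 49 of 236 (8.05% and 20.8%). Median log2 changes were -0.07 within 50 kb, -0.06 beyond, 0.01 in FANTOM5 and -0.10 with several centers. The classes share genes, no test of these differences was made, and none is called particular to the enhancers within 50 kb.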

How the data were processed

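PRO-seq was made from nuclei of mouse liver, with 2 WT and 2 KO libraries. Per the labels and the methods of the study, the authors trimmed reads with cutadapt, aligned them to mm10 with Bowtie2, and counted them per RefSeq transcript in a promoter-proximal window and in the gene body with NRSA, their tool for nascent RNA. The deposited table holds read counts for WT2 (factor 1) and, for the other libraries, a signal of counts multiplied by 1 factor each (1.15, 1.06 and 1.52 for WT1, KO1 and KO2), so all are called normalized reads here. Whole reads were recovered from 100% of 41640 values per library (tolerance 0.01 reads), and edgeR and DESeq2 on these reads were alternatives. Values of 0 columns were left without a sample. The deposited enhancer list gives positions, centers, distances and 4DGenome links. The authors called it with HOMER and NRSA on reads pooled over all libraries, so WT and KO cannot be compared in it.

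Where a symbol had several transcripts, that with the highest promoter-proximal value stood for the gene, and a gene was active at a mean gene body density of over 4 normalized reads per kb (12705 genes). limma 3.58.1 in R 4.3.3 (trend, empirical Bayes) was fitted to log2(normalized reads + 1), KO minus WT, without a replicate block. A call needed an adjusted p under 0.05 (Benjamini-Hochberg) and an absolute log2 change over 0.6. On simulated counts of these genes, 200 of 12705 were given an absolute log2 change of 2. Of these, limma recovered 191 in gene bodies and 162 near promoters, with 13 and 2 false calls. The simulated spread was fixed and no region was shifted as a whole. These counts thus do not show how well changes near the threshold are called in the real libraries. edgeR was version 4.0.16 and DESeq2 version 1.42.0. Gene body density is reads per kb of the counted region.

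Named genes were the closest genes with the 8 largest rises and 8 largest falls in gene bodies and the 5 and 5 near promoters (called, genotypes not overlapping, mean of at least 50 normalized reads), the 6 genes with most enhancers, in each list the 4 of highest density and the largest called rise and fall, and Fscn1. A gene that this rule names is not reported here. The genes whose start sequences are shown were added to these. The enhancers, gene lists and tests were chosen with earlier results of these data known. Gene models came from GENCODE M21 and promoter sequences from RefSeq GRCm38.p6. The sequence at other enhancer centers was not analysed here. Reads per region set the precision: promoter-proximal windows held 9.38% to 17.0% of reads on genes.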

Additional observations from a re-analysis of the deposited data

How the results depend on the processing

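With all genes of the table fitted in place of active ones, the closest genes called in the gene body were 18 up and 33 down (79 and 96 as reported), and 0 were called near the promoter in either direction or up in the pausing index. The cause was not tested. With no threshold on the fold change, gene body calls were 145 up and 165 down. For enhancers within 20 kb, which are fewer, they were 41 and 49, with 93 and 12 near the promoter and 28 up in the pausing index. Under median-of-ratios or TMM scaling within each region, promoter-proximal calls were 39 up and 87 down (173 and 26 as reported), pausing index calls were 0 up, the median promoter-proximal log2 change of the closest genes was -0.061 under both in place of 0.51, and the median gene body change was 0.015 and 0.013 in place of -0.07 (0.015 also with factors from gene bodies). A pseudocount of 10 gave 90 pausing index calls up and 5 down, and the stricter activity filter gave 1 down.

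Leaving out each library in turn gave 61 to 86 gene body calls up and 84 to 95 down. It gave 19 to 182 promoter-proximal calls up, with 38 without WT1, 25 without WT2 and 19 without KO2, and 5 to 14 down, fewer in each case than the 26 reported. It gave 0 to 196 pausing index calls up (0 without WT1 or WT2, 7 without KO2, 196 without KO1) and 0 to 2 down, and median gene body changes of -0.11 to -0.015. edgeR called 79 up and 96 down in gene bodies and 175 and 26 near promoters, and DESeq2 75 and 89, and 156 and 19.

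Replicate numbers in the labels pair no animals, and deviations of same-numbered libraries correlated at 0.019 in gene bodies and -0.11 near promoters. With 2 libraries per genotype, these correlations cannot decide whether same-numbered libraries were processed together. A shared day or batch of processing was thus not tested. With the replicate block, promoter-proximal calls were 99 up and pausing index calls 4 up. With the pairing crossed, an alternative chosen after seeing the data, there were 40 promoter-proximal calls down, and 143 up and 4 down in the pausing index.

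Of the named genes called in the gene body, 16 of 56 stayed called under every setting and 40 were lost under at least 1. Near the promoter 47 of 47 were lost under at least 1. The fit without the activity filter called 0 closest genes near the promoter, which fixed that count in advance. Many of the 40 gene body calls were lost under this setting alone. None of the named genes turned its direction while called. Without the activity filter, 1 of 15 endothelial and 7 of 13 stellate genes rose in the gene body in place of 12 and 12. The list does not tie single 4DGenome links to a method, so Hi-C links could not be taken out. Among the 348 enhancers left after dropping those with Hi-C links alone, an alternative chosen after seeing the data, the closest gene was linked for 168 (48.3%). A motif search in another window around the centers was not run, since no genome sequence was used.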
